A study of Mus musculus with 11 samples.

Results

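*Ceacam1*, *Gas6*, *Kcnf1* and *Lrig1* were 4 of the 23 genes listed for both HaCa4 cells and lymphatic endothelial cells (LECs), among 458 distinct genes (290 for HaCa4 and 191 for LECs). They were chosen by their measured values, because each was higher after co-culture in one line and lower in the other. The direction in each line, the size of each change and the separation of sorted from control libraries are therefore given below as a description without a test.

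Bulk RNA was compared in 11 libraries, of which 2 were HaCa4 control and 3 each were HaCa4-sorted, LEC control and LEC-sorted. Controls were grown alone, and sorted cells were separated by flow cytometry after 24 h in co-culture, so the sorted groups differ from their controls by both the partner cells and the sort. HaCa4 is an established mouse skin squamous cell carcinoma line. The LECs are conditionally immortal cells from mice carrying the H-2Kb-tsA58 transgene, whose promoter drives a thermolabile SV40 large T antigen. Per the study's methods they were expanded with interferon gamma, which induces it, and 2 LEC clones were used interchangeably. For functional assays the cells were moved to conditions without interferon gamma in which the antigen is degraded. The labels give neither the clone nor which of these conditions each library came from. In the sort, cancer cells were taken by the dye CFSE and LECs by an antibody against CD31, the product of *Pecam1*, so *Pecam1* was itself a gate in LECs. The labels do not say that replicates were separate cultures, so every spread given is that between these libraries. In bulk RNA, fewer expressing cells and less RNA per cell cannot be told apart.

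The proteins encoded by these genes act at the cell surface. CEACAM1 is an immunoglobulin-family adhesion receptor that binds other CEACAM1 molecules between neighbouring cells and carries inhibitory motifs in its long cytoplasmic tail, and it takes part in vessel formation. GAS6 is a secreted, vitamin K-dependent ligand of the TYRO3, AXL and MERTK receptor kinases. LRIG1 is a membrane protein that restrains EGFR and other ErbB receptors and marks stem cells of the hair follicle and epidermis. KCNF1 is a silent subunit that forms no potassium channel alone and modifies other voltage-gated subunits.

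The genes lie on the minus strand of GRCm38.p6, the build of the deposited annotation. *Ceacam1* (gene 26365) spans chr7:25461702-25477647, *Gas6* (gene 14456) chr8:13465374-13494535, *Kcnf1* (gene 382571) chr12:17172100-17176888 and *Lrig1* (gene 16206) chr6:94604529-94700298. Each maps to a different chromosome, so the group is no gene cluster. RefSeq gave 1 window per gene, the 250 bases before the start site of a transcript. That start lies inside the outer gene boundary for *Ceacam1* and *Lrig1*, whose windows overlap the gene by 22 and 153 bases. The windows of *Ceacam1*, *Gas6* and *Kcnf1* are printed 5′ to 3′ because these genes shared 1 pattern, higher in HaCa4-sorted and lower in LEC-sorted, and capitals mark matches to any of 6 motifs searched on both strands.
Ceacam1, chr7:25477626-25477875: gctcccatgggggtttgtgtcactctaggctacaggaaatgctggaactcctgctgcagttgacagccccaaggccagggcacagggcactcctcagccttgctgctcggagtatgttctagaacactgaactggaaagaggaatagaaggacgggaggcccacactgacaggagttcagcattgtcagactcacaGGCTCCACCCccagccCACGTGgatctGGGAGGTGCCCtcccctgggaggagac
Gas6, chr8:13494536-13494785: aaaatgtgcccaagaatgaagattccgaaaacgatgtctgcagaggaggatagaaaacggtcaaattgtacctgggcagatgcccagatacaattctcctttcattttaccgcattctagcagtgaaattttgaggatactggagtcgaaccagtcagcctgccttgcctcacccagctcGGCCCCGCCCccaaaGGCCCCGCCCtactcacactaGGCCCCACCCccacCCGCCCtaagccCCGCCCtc
Kcnf1, chr12:17176889-17177138: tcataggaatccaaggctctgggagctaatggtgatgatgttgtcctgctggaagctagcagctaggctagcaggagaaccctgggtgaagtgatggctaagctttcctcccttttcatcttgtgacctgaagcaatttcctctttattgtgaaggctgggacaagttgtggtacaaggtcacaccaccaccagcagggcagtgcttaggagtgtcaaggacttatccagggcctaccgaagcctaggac

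The motifs were the AP-1 site TGANTCA, the GC box GGGCGG, the TATA box TATAAA, the hypoxia core ACGTG, the interferon-type GAS TTCNNNGAA and the NF-kappaB pattern of GGG and CC 5 bases apart. *Gas6* held 4 matches to the GC box, close to its start site. The GC box, also present in *Lrig1*, occurred in 32.9% of 27025 promoter windows of the same length. *Ceacam1* held the hypoxia core within a palindrome that matches on both strands, *Lrig1* also held it, and so did 16.6% of windows. The NF-kappaB pattern was present in *Ceacam1*, *Gas6* and *Lrig1* and in 45.4% of windows, and in *Gas6* it overlapped GC boxes. *Kcnf1* held none of the 6 motifs. No gene matched the AP-1 site (6.87% of windows), the TATA box (13%) or the GAS pattern (7.18%). GC content was 58.8% in *Ceacam1*, 54.8% in *Gas6*, 51.2% in *Kcnf1* and 71.6% in *Lrig1*, against a median of 52% over all windows. No motif was therefore common to *Ceacam1*, *Gas6* and *Kcnf1*, and a match is a match of letters and not a measured binding site.

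The values are TPM, transcript levels corrected for gene length and library size, so levels can be compared between genes. Log2 changes are differences of mean log2(TPM + 1), which understates the change of low genes. Both tables hold a selected part of each transcriptome, between 1.84% and 3.85% of each library's total TPM. In controls, the markers that were listed matched the labels of both lines. The HaCa4-sorted libraries also held endothelial marker RNA, as given below. The 4 listed keratinocyte markers of 36 (*Dsg3*, *Krt19*, *Krt6b* and *Krt8*) summed to 320.86 and 409.94 TPM in HaCa4 control and to 246.56, 233.48 and 275.7 TPM in HaCa4-sorted, while *Krt5* and *Krt14* were not analysed here. In LEC control the 3 listed endothelial markers of 30 (*Clec14a*, *Kdr* and *Pdpn*) summed to 346.84 to 401.42 TPM, and *Krt8* was listed at 0 in every library. *Pecam1* and *Cdh5* were not analysed in LECs.

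The HaCa4-sorted libraries stood apart from one another in endothelial RNA. The 17 listed endothelial markers of 30 summed to 4.02 and 3.07 TPM in HaCa4 control, and to 19.45, 288.14 and 126.24 TPM in HaCa4-sorted replicates 1, 2 and 3. *Pecam1* was 0.14 and 0.04 TPM in HaCa4 control and 1.29, 24.25 and 9.38 TPM in HaCa4-sorted. *Cdh5*, the endothelial cadherin, was listed at 0 in both controls and was 1.11, 29.73 and 13.78 TPM in HaCa4-sorted. Replicate 2 was highest and replicate 1 lowest in all 3 measures. In LEC-sorted the only listed keratinocyte marker, *Krt8*, was 0.19, 2.19 and 0.89 TPM.

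The adhesion receptor *Ceacam1* was low in cancer cells alone and high in endothelial cells alone. It was 1.63 and 1.37 TPM in HaCa4 control and 6.54, 3.77 and 6.67 TPM in HaCa4-sorted. It was 16.71, 18.24 and 6.89 TPM in LEC control and 2.2, 4.59 and 5.23 TPM in LEC-sorted. Sorted and control libraries did not overlap in either line, although the third LEC control lay near LEC-sorted. The mean was 3.77-fold higher in HaCa4-sorted and 3.48-fold lower in LEC-sorted. The log2 change was 1.38 (SE 0.41) in HaCa4 and -1.53 (SE 0.42) in LECs. After scaling the libraries to a common median of their listed genes (median scaling), these were 0.77 and -2.07, and a pseudocount of 5 gave 0.70 in HaCa4. Mouse *Ceacam2* is a close copy of *Ceacam1*, and how reads were divided between them is not given in the sources used here.

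*Kcnf1*, the silent channel subunit, had the same order of groups as *Ceacam1*. It was 5.32 and 4.13 TPM in HaCa4 control and 11.43, 6.25 and 11.79 TPM in HaCa4-sorted. It was 24.32, 20.43 and 14.5 TPM in LEC control and 8.98, 6.52 and 8.13 TPM in LEC-sorted. All sorted libraries lay above control in HaCa4 and below it in LECs. The mean was 2.08-fold higher in HaCa4-sorted and 2.51-fold lower in LEC-sorted, with log2 changes of 0.88 (SE 0.37) and -1.21 (SE 0.25). Under median scaling the HaCa4 change of *Kcnf1* was 0.14 and the LEC change was -1.78.

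The ligand *Gas6* was an endothelial transcript in these cultures. It was 130.1, 257.69 and 130.44 TPM in LEC control and 75.13, 88.64 and 94.94 TPM in LEC-sorted. In HaCa4 control it was 0.04 TPM in 1 library and listed at 0 in the other, and in HaCa4-sorted it was 0.22, 1.55 and 0.95 TPM. The groups did not overlap in either line, but the HaCa4-sorted levels remained far below every LEC library. The mean was 2.0-fold lower in LEC-sorted, and no fold is given in HaCa4 because of the control listed at 0. The log2 change was 0.84 (SE 0.41) in HaCa4 and -0.92 (SE 0.28) in LECs. Without the second LEC control, the highest of all libraries, the LEC change was -0.60, and under median scaling it was -1.55.

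*Lrig1*, the ErbB restrainer, had the reverse pattern. It was 91.7 and 86.28 TPM in HaCa4 control and 70.68, 58.47 and 70.43 TPM in HaCa4-sorted. It was 33.57, 32.08 and 46.84 TPM in LEC control and 72.44, 70.96 and 61.64 TPM in LEC-sorted. Again no sorted library overlapped its control. The keratinocyte marker sum was also below control in every HaCa4-sorted library and, like *Lrig1*, lowest in replicate 2, and its part in the *Lrig1* difference was not tested. That sum holds listed markers only and was mostly *Krt8* (mean 332 TPM in HaCa4 control and 221 TPM in HaCa4-sorted). *Krt8* was itself a shared gene with opposite changes, so the sum does not measure keratinocyte RNA as a whole. The mean was 1.34-fold lower in HaCa4-sorted and 1.82-fold higher in LEC-sorted, with log2 changes of -0.42 (SE 0.13) and 0.87 (SE 0.19). Under median scaling these were -1.28 and 0.25.

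**Figure D1:**
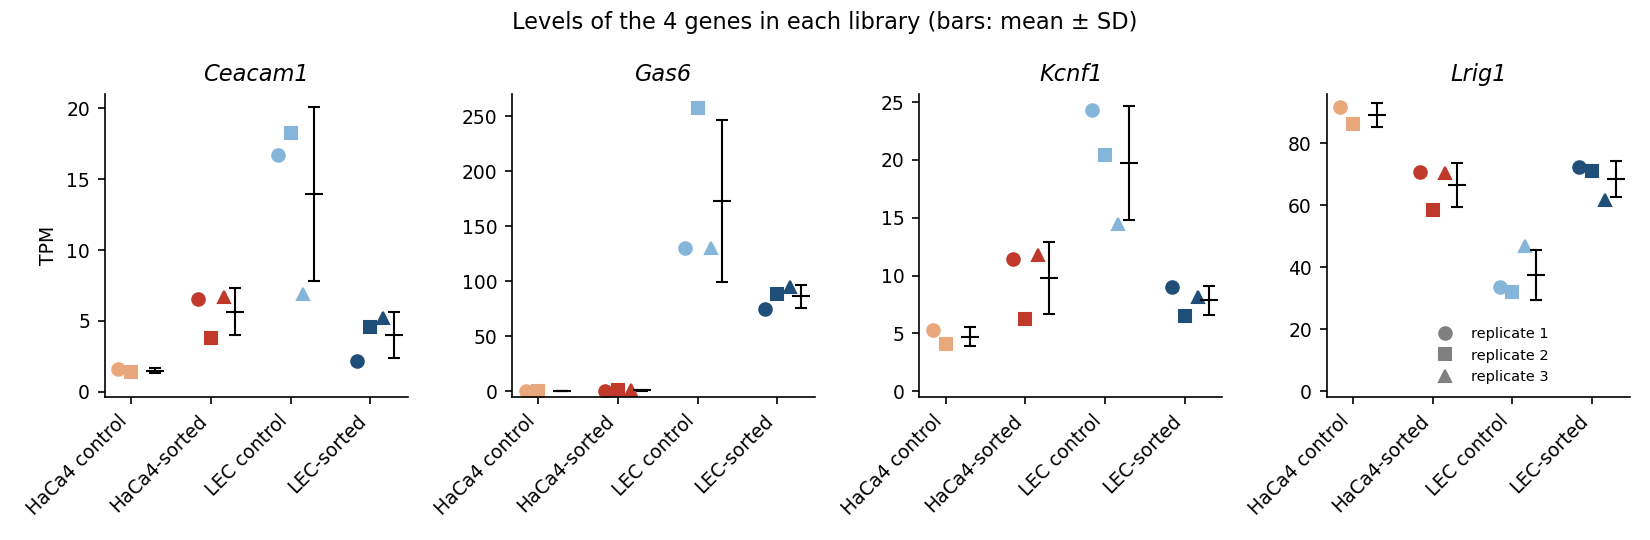
TPM of each gene on its own linear axis, by group, with marker shape giving the replicate number and black bars the mean ± SD (n = 2 for HaCa4 control and n = 3 otherwise). *Ceacam1* and *Kcnf1* run from high in LEC control to low in LEC-sorted and from low in HaCa4 control to higher in HaCa4-sorted, *Lrig1* runs the reverse way, and *Gas6* in HaCa4 is barely above 0 on an axis set by LECs.

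Group means and SDs put the 4 genes on a common footing. *Ceacam1* was 1.5 ± 0.18, 5.66 ± 1.64, 13.9 ± 6.16 and 4.01 ± 1.60 TPM (SD) in HaCa4 control, HaCa4-sorted, LEC control and LEC-sorted. *Kcnf1* was 4.73 ± 0.84, 9.82 ± 3.10, 19.8 ± 4.95 and 7.88 ± 1.25 TPM in the same groups. For both genes the order was LEC control, HaCa4-sorted, LEC-sorted and HaCa4 control, and the sorted groups overlapped. *Lrig1* was 89.0 ± 3.83, 66.5 ± 6.98, 37.5 ± 8.13 and 68.3 ± 5.86 TPM, so HaCa4 control was highest, LEC control lowest and the sorted groups overlapped between them. *Gas6* was 0.02 ± 0.03, 0.907 ± 0.666, 173 ± 73.6 and 86.2 ± 10.1 TPM, and none of its groups overlapped.

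In TPM as deposited, the gap between the lines was narrower after co-culture for all 4 genes. In controls, LEC minus HaCa4 was 2.48 (SE 0.42) for *Ceacam1*, 1.84 (SE 0.32) for *Kcnf1*, 7.33 (SE 0.37) for *Gas6* and -1.24 (SE 0.24) for *Lrig1* in log2 units. In sorted cells the gap was -0.44, -0.25, 5.57 and 0.04. The gap in sorted cells equals the control gap plus the LEC change minus the HaCa4 change. The genes were chosen by the opposite directions of those changes, so the narrowing is a description too. The narrowing depended on scaling, although a median over 23 selected genes need not be constant across the groups. Such scaling can remove real differences. With the libraries scaled to a common median of the shared genes, the gap in controls and in sorted cells was 1.39 and -2.08 for *Ceacam1*, 0.58 and -2.05 for *Kcnf1*, 6.66 and 4.07 for *Gas6*, and -2.63 and -1.96 for *Lrig1*, so it was narrower for *Gas6* and *Lrig1* and wider, with the sign turned, for *Ceacam1* and *Kcnf1*. The control gap shares its libraries with the contrasts that chose the genes, so its calls are a description: 4 of 4 were called, against 91.3% of the 23 shared genes at an adjusted p of at most 0.05. The *Kcnf1* control gap was no longer called under that scaling. In TPM as deposited, the gap narrowed in 8 of the 12 other shared genes with opposite changes, and among the 7 with like changes it narrowed in 3.

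By absolute log2 change, *Ceacam1* ranked 62, *Kcnf1* 138, *Gas6* 154 and *Lrig1* 265 among the 290 HaCa4 genes. Among the 191 LEC genes the ranks were 41, 65, 114 and 129. With limma on log2(TPM + 1), where a call needed an adjusted p up to 0.05 and 0.5 or more log2 units, 1 of 4 was called in HaCa4 (*Ceacam1*), where 30.0% of listed genes were, and 4 of 4 in LECs, where 96.3% were. The sorted libraries lay clear of the control libraries for 4 of 4 in each line, against 96.6% of HaCa4 and 96.9% of LEC genes. Nothing is read from these counts, since the same contrasts chose the genes. The median change over all listed genes was 0.74 in HaCa4 and 0.87 in LECs, and median scaling moved all changes by a median of -0.72 and -0.61. Median scaling assumes that the typical listed gene does not change, which a selected set need not meet.

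**Figure D2:**
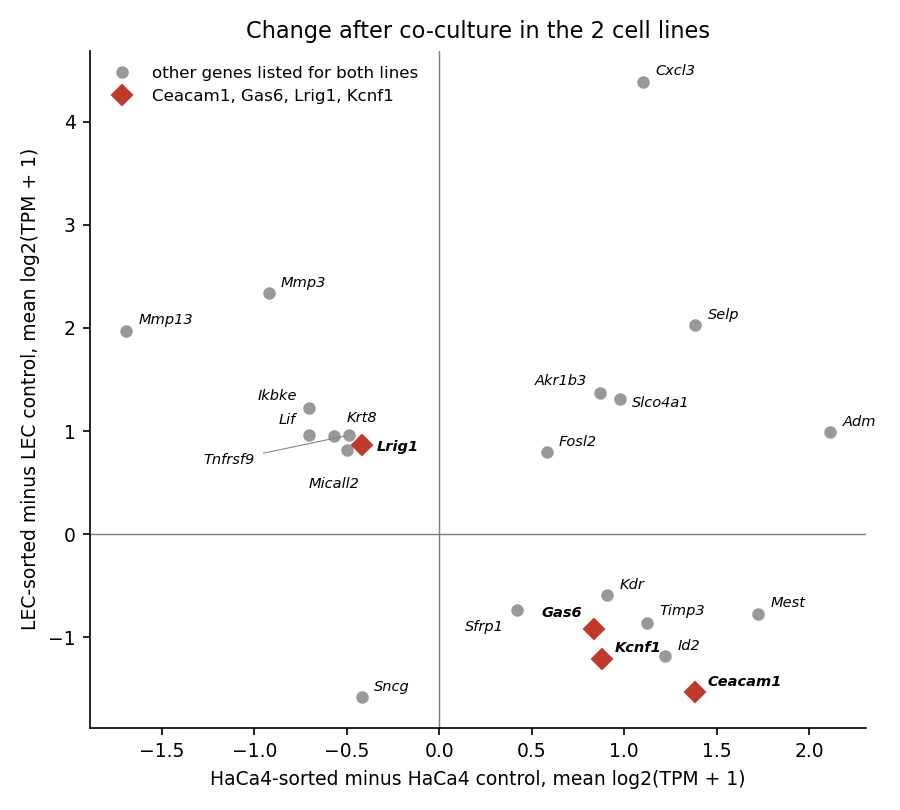
Mean log2(TPM + 1) of sorted minus control libraries in HaCa4 (horizontal axis) and LECs (vertical axis) for the 23 genes listed for both lines, with the 4 genes as diamonds. *Ceacam1*, *Gas6* and *Kcnf1* sit at lower right and *Lrig1* at upper left, among the 16 genes with opposite signs.

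Of the 23 shared genes, 7 differed from control in the same direction in both lines and 16 in opposite directions, 8 each way. *Mest*, *Id2*, *Timp3*, *Kdr* and *Sfrp1* accompanied *Ceacam1*, *Gas6* and *Kcnf1*. *Micall2*, *Tnfrsf9*, *Krt8*, *Lif*, *Ikbke*, *Mmp3* and *Mmp13* accompanied *Lrig1*. The profile over all 11 libraries most like that of *Ceacam1* was *Kcnf1* (Pearson r = 0.923), followed by *Id2* (r = 0.735), an inhibitor of helix-loop-helix transcription factors. *Kcnf1* was most like *Ceacam1* and *Id2* (r = 0.753). *Gas6* was most like the VEGF receptor gene *Kdr* (r = 0.998) and the imprinted gene *Mest* (r = 0.996). *Lrig1* was most like the cytokine gene *Lif* (r = 0.906) and the collagenase gene *Mmp13* (r = 0.861). These are descriptions over libraries of 4 groups, with 22 genes compared for each. Each r mixes the difference between the lines with the sorted against control changes. Those changes chose the 4 genes, so no r is independent of that choice.

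The excess of each HaCa4-sorted library over the HaCa4 control mean was set against the level of the same gene in LEC-sorted. The excess of *Gas6* was 0.232%, 1.77% and 1.08% of the mean LEC-sorted level in replicates 1, 2 and 3. The excess was 0.124%, 1.83% and 1.12% for *Kdr*, 0.207%, 1.80% and 0.811% for *Mest*, and 0.0746%, 1.91% and 0.771% for *Sfrp1*. For *Timp3*, a metalloproteinase inhibitor gene, it was 1.18%, 1.91% and 1.88%. All 5 genes were lowest in replicate 1 and highest in replicate 2, as was the endothelial marker sum. The shares of *Gas6*, *Kdr*, *Mest* and *Timp3* were close in replicate 2 and differed more in replicate 1. The part of endothelial RNA in the *Gas6* excess was not tested.

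*Ceacam1* and *Kcnf1* differed from *Gas6* in both respects. The excess of *Ceacam1* was 126%, 56.7% and 129% of its LEC-sorted mean, and that of *Kcnf1* was 85.1%, 19.4% and 89.7%. *Id2* was like them, with 197%, 71.0% and 154%. For all 3 genes replicate 2, with the most endothelial marker RNA, was lowest. The HaCa4 rise and the lower LEC-sorted level both entered the choice of *Ceacam1*, *Kcnf1* and *Gas6*, so larger shares were favoured in advance. Against the LEC control mean, the excess was 36.1%, 16.3% and 37.1% for *Ceacam1* and 33.95%, 7.72% and 35.8% for *Kcnf1*. For *Gas6* it was 0.116%, 0.886% and 0.538%. The part of endothelial RNA in these values was not tested. Without replicate 2 the HaCa4 log2 change was 1.61 for *Ceacam1*, 1.15 for *Kcnf1*, 0.60 for *Gas6* and -0.33 for *Lrig1*. The excess of *Lrig1* in LEC-sorted over LEC control was 52.5%, 50.3% and 36.3% of its HaCa4-sorted mean. That of *Krt8* in the same libraries was 0.0859%, 0.990% and 0.402%. Other genes that accompanied *Lrig1* and were higher in HaCa4 control spanned a wide range. The excess was 3.61%, 3.34% and 5.36% for *Tnfrsf9*, 51.1%, 57.3% and 22.9% for *Lif*, and 85.1%, 335% and 75.1% for *Mmp13*.

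**Figure D3:**
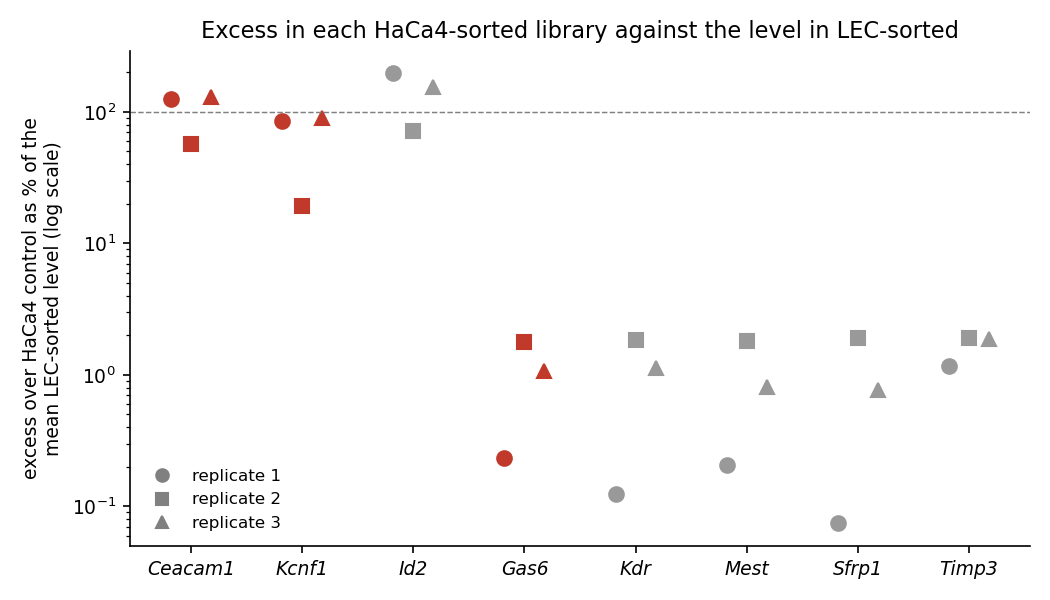
Excess over the HaCa4 control mean in each HaCa4-sorted library as a percentage of the mean LEC-sorted level (log axis, dashed line where the excess equals that level), for the 8 opposite genes higher in HaCa4-sorted. *Ceacam1*, *Kcnf1* and *Id2* lie between 19.4% and 197% with replicate 2 lowest, while *Gas6*, *Kdr*, *Mest*, *Sfrp1* and *Timp3* lie under 2% with replicate 2 highest.

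The pathway lists held few listed genes. Of 8 genes for TYRO3, AXL and MERTK signalling and vitamin K enzymes, 2 were listed for HaCa4 and 1 for LECs. The receptor gene *Mertk* was 1.82 and 1.59 TPM in HaCa4 control and 2.86, 5.82 and 4.8 TPM in HaCa4-sorted, without overlap. Its log2 difference of 0.98 (SE 0.43) did not pass (limma, adjusted p = 0.0900, range over alternatives 0.0342 to 0.587), and it passed only without HaCa4-sorted replicate 1, at 0.0342. Its order over HaCa4-sorted libraries was that of the endothelial markers, whose part in it was not tested.

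Of 21 LRIG and ErbB genes, 2 were listed for each line, *Lrig1* in both. *Areg*, an EGFR ligand, was 205.3 and 221.78 TPM in HaCa4 control and 165.28, 128.02 and 140.2 TPM in HaCa4-sorted. It fell by 0.57 on the log2 scale (SE 0.14, limma adjusted p = 0.0366, range over alternatives 0.00064 to 0.179). The call was lost without either HaCa4 control and without HaCa4-sorted replicate 2 or 3, with log2 differences from -0.62 to -0.48. It was also lost without the limma trend (adjusted p = 0.0790) and with a replicate block that numbers the second HaCa4 control 3 (adjusted p = 0.0789). *Errfi1*, an intracellular EGFR inhibitor, was 61.85, 37.74 and 59.91 TPM in LEC control and 112.59, 121.82 and 115.76 TPM in LEC-sorted. It rose by 1.15 (SE 0.21, limma adjusted p = 0.00384), but by 0.53 under median scaling, where the adjusted p was 0.0978, the highest of its alternatives, and the lowest was 0.00168.

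Of 16 CEACAM family and partner genes, *Ceacam1* alone was listed for each line. The potassium channel genes were *Kcnf1* in both lines and *Kcnn4*, a calcium-activated channel, in HaCa4. *Kcnn4* was 133.04 and 173.24 TPM in HaCa4 control and 82.42, 90.44 and 91.4 TPM in HaCa4-sorted. It fell by 0.78 (SE 0.14, limma adjusted p = 0.0308, range over alternatives 0.000118 to 0.161), opposite to *Kcnf1* in the same libraries. The call was lost without the second HaCa4 control (-0.59) or HaCa4-sorted replicate 3 (-0.81), and without the limma trend (adjusted p = 0.0735). The adjusted p-values of *Mertk*, *Areg*, *Errfi1* and *Kcnn4* run over listed genes alone, and the lists were chosen with earlier results known. The study called 191 genes deregulated in LEC-sorted against LEC control, the number listed here. For HaCa4 it called fewer than the 290 listed here, so the rule of that listing is not known. Among listed HaCa4 genes, 96.6% had no overlap between sorted and control libraries. Listing therefore appears to rest on these same libraries, and the p-values are not independent evidence of change.

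**Figure D4:**
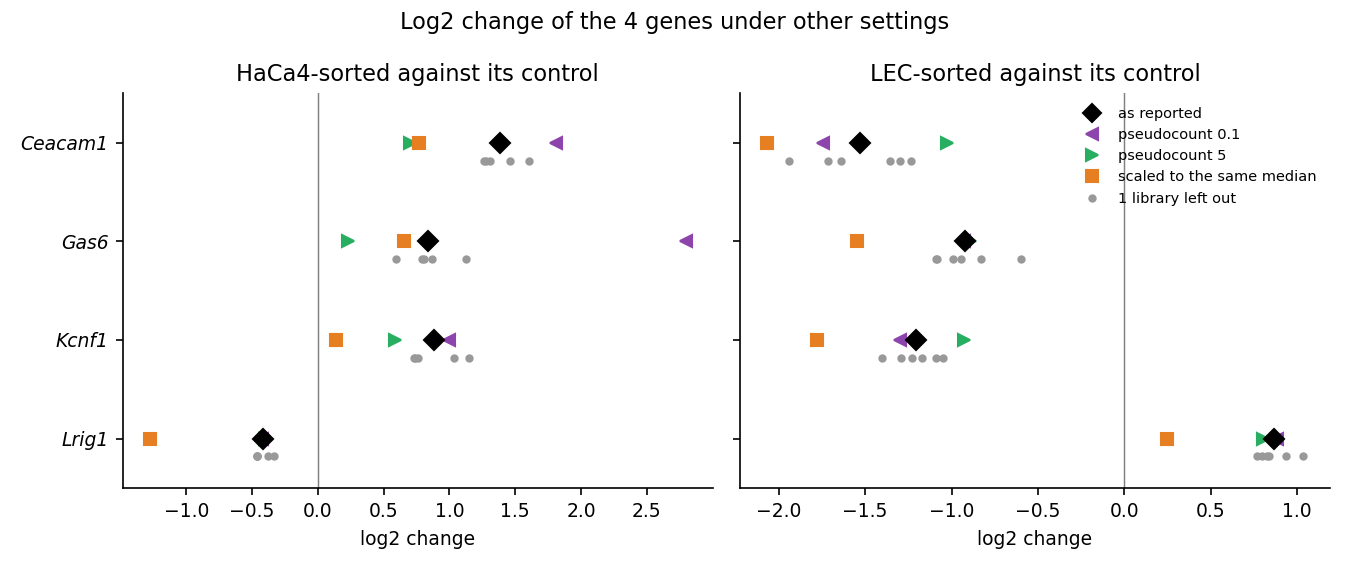
Log2 change of each gene in HaCa4-sorted (left) and LEC-sorted (right) against its control, as reported (diamonds) and under other pseudocounts, median scaling, or with 1 library left out (dots). Each gene kept its sign in every alternative shown, and median scaling brought *Kcnf1* in HaCa4 (0.14) and *Lrig1* in LECs (0.25) closest to 0. Only median scaling could have turned a sign, because sorted and control libraries of these genes did not overlap.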

How the data were processed

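RNA was analysed in 2 HaCa4 control libraries and 3 libraries of each other group. Per the study's methods, SOAPnuke filtered the reads, HISAT (2.0.4) placed them on GRCm38.p6, and the authors called differential expression with DESeq2. The deposited values are TPM per gene and library. The tool that made them, and the handling of strand and multi-mapped reads, is not given in the sources used here. TPM keep no depth, so no counting error is given. At most 5 of 290 genes had identical values above 0 in a replicate pair.

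Log2(TPM + 1) was fitted with limma (3.58.1, R 4.3.3, mean-variance trend) over all genes listed for a line, with Benjamini-Hochberg adjustment. A call needed an adjusted p up to 0.05 and an absolute log2 change of 0.5 or more, and between the lines the adjusted p alone. The lines were compared over the 23 shared genes and all 4 groups. The fits were run on simulated data with known changes in part of the genes. That simulation did not model the selection of the listed genes, so it is no support for the calls. The listed genes are a selected set, so adjustment over them is not independent of that selection. The planned test of the control gap is given without p-values because it shares control libraries with the selecting contrasts.

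Named genes were the 4 genes, the 2 most correlated shared genes for each, the other shared genes with opposite changes, and every listed gene of the pathway lists. The members and lists were chosen with earlier results of these data known. Promoter windows of 250 bases and coordinates came from RefSeq, and all 4 genes matched by symbol. The marker lists used were 30 endothelial and 36 keratinocyte genes. The second HaCa4 control is replicate 2 by its label, although its deposited values carry the number 3. Alternatives were other pseudocounts (0.1 and 5), filters on mean TPM (1 and 10), median scaling, no trend, a replicate block, a larger fold threshold and leaving out each library.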

Additional observations from a re-analysis of the deposited data

Results flagged for a closer look

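Every sorted library of each gene moved one way in HaCa4 and the opposite way in LECs. The LEC change minus the HaCa4 change was -2.91 for *Ceacam1*, -1.76 for *Gas6*, 1.28 for *Lrig1* and -2.09 for *Kcnf1* on the log2 scale. These differences were not tested, since the opposite directions are how the genes were chosen.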

How the results depend on the processing

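Of 88 alternative values for the changes of the 4 genes, 78 lay within 1 SD of the reported value, 10 moved further and 0 reversed. Sorted and control libraries of these genes did not overlap, so only median scaling could have reversed a sign. Leaving out 1 library from a group of 3 could also not move a change by 1 pooled SD. These counts were thus partly fixed in advance. With pseudocounts of 0.1 and 5 the *Gas6* change in HaCa4 was 2.80 and 0.23. The HaCa4 count of called genes was 87 and became 177 with a pseudocount of 0.1, 33 with 5, 140 under median scaling (46 higher and 94 lower, against 46 and 41) and 39 at an absolute log2 change of at least 1. Without the limma trend it was 0, with 161 genes at an unadjusted p under 0.05. Leaving out 1 library gave 0 to 194 (6 without control 1, 0 without control 2 or sorted replicate 3, with 70 and 126 at an unadjusted p under 0.05, and 194 without sorted replicate 1). The LEC count was 184 (122 higher and 62 lower) and became 110 under median scaling (46 higher and 64 lower) and 95 at an absolute log2 change of at least 1, and leaving out 1 library gave 165 to 177. The control comparison called 21 genes, 18 under median scaling and 19 to 22 with 1 library left out. The gap between the sorted lines under median scaling was added after seeing the data. The cause of these movements was not tested.

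Replicate numbers were not treated as pairs. Same-numbered deviations correlated at r = 0.231 and 0.284 in HaCa4, which has only 2 pairs, at 0.230, 0.074 and -0.019 in LECs, and at -0.013, 0.106 and 0.593 between HaCa4-sorted and LEC-sorted over 23 genes, so not every pair deviated together. A replicate block gave 115 calls in HaCa4, 182 in LECs and 21 between the controls, and 22 in HaCa4 with the second control numbered 3. With that block no change of the 4 genes reversed, but the values equal those without HaCa4-sorted replicate 2 (1.61 for *Ceacam1* in both). It is therefore no separate check of their direction. Depth is unknown, and the low *Gas6* values in HaCa4 rest on few TPM.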
